A study of Mus musculus with 16 samples.

Results

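The subject is the gap between what Jak2V617F did to transcripts in MPP3 and what it did in HSC. It was measured as the log2 effect of Jak2V617F over wild type (WT) in MPP3 minus the same effect in HSC, and is called the difference of effects below. It uses all 16 of the 16 libraries of the series, 4 in each of 4 groups: Jak2V617F MPP3, WT MPP3, Jak2V617F HSC and WT HSC. All cells came from mouse bone marrow, and the MPP3 of both genotypes were the Fcgr-negative fraction. A positive difference means that the gene's Jak2V617F effect lay higher in MPP3 than in HSC, and a negative one that it lay lower. The labels name neither the promoter or Cre line behind the allele nor its zygosity, the ages of the mice, or whether each library came from its own animal. Each p therefore measures the spread between these libraries.

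Haematopoietic stem cells (HSC) sit at the top of blood formation, divide rarely and are held in that state by a set of transcription factors and surface receptors. MPP3 are multipotent progenitors below them that are biased towards granulocytes and monocytes and divide more often. JAK2 is the tyrosine kinase that carries signals from the receptors for erythropoietin, thrombopoietin and interleukin 3 to STAT transcription factors. The V617F change in its pseudokinase domain keeps it active, and it is the most common driver mutation of the myeloproliferative neoplasms, in which red cells, platelets or granulocytes are overproduced.

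Per library, 33.1 to 41.2 (units of 1e6) estimated counts were assigned to genes, with 14439 to 16522 genes detected. Levels are CPM (counts per 1000000, on library sizes scaled by the TMM method), given as mean ± SD over 4 libraries or as the 4 libraries in the order of replicates 1 to 4. Effects and their differences are log2 values ± SE, with p adjusted by Benjamini-Hochberg over 14179 genes in edgeR's quasi-likelihood test, which had the batch number as a block. Mpo, which encodes the myeloperoxidase of granules, averaged 2410 CPM in Jak2V617F MPP3 and 2492 CPM in WT MPP3, against 5.36 CPM in Jak2V617F HSC and 9.33 CPM in WT HSC. Slamf1, the CD150 marker of HSC, ran the other way, at 2.44 and 1.88 CPM in Jak2V617F and WT MPP3, against 37.6 and 39.9 CPM in Jak2V617F and WT HSC. Transcripts of the Fc-gamma receptors, which the MPP3 gate leaves out, were not absent from MPP3 and were higher there than in HSC. Fcgr3 was at 3.38 and 4.997 CPM in Jak2V617F and WT MPP3, against 0.239 and 0.172 CPM in Jak2V617F and WT HSC. Fcgr2b was at 23.04 and 18.7 CPM in Jak2V617F and WT MPP3, against 3.82 and 5.09 CPM in Jak2V617F and WT HSC. Jak2 itself was at 24.4 CPM in Jak2V617F MPP3, 24.7 in WT MPP3, 25.9 in Jak2V617F HSC and 21.8 in WT HSC, with a difference of effects of -0.26 ± 0.32 (edgeR adjusted p = 0.931). A gene-level count does not show the mutated base and is therefore no check of genotype. The share of mitochondrial reads was 1.36% ± 0.0907 in Jak2V617F MPP3 and 1.61% ± 0.308 in WT MPP3, against 1.20% ± 0.209 in Jak2V617F HSC and 1.78% ± 0.268 in WT HSC. Its part in the results was not tested. A CPM in bulk RNA cannot tell fewer cells of a type from less RNA of the gene per cell, and this holds for every gene below.

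Taken gene by gene, 1 gene passed the threshold for the difference of effects, the guanylate-binding protein gene Gbp4. That is 0.00705% of the genes tested. DESeq2 with the same design called 168 genes (1.18%), of which 50 were positive (0.353%) and 118 negative (0.832%). At an unadjusted p under 0.05 edgeR had 1084 genes (7.65%). At an unadjusted p under 0.01, the level used below to count members of gene lists, it had 319 genes (2.25%), with 122 positive (0.86%) and 197 negative (1.39%). The median SE of the difference was 0.32, against 0.23 for the effect within MPP3 and 0.23 for that within HSC. The effect within MPP3 passed the threshold in 82 genes (0.578%), 25 up (0.176%) and 57 down (0.402%), and the effect within HSC in 1394 genes (9.83%), 818 up (5.77%) and 576 down (4.06%). Both counts depended on single libraries. That for MPP3 was 253 without Jak2V617F MPP3 replicate 3 and 2 without WT MPP3 replicate 4, and that for HSC was 1681 without Jak2V617F HSC replicate 3 and 703 without WT HSC replicate 2. A call in HSC without one in MPP3 is not by itself a difference between the cell types, and only the difference of effects tests that. The shares of all genes given here are the background for every count of list members called up or down below.

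The effects of the cell types are set side by side in the scatter of MPP3 against HSC effects. The 818 genes that rose in Jak2V617F HSC had a median effect of 0.27 in MPP3 and 0.56 in HSC, and 781 of them were positive in MPP3. The 576 genes that fell in Jak2V617F HSC had a median of -0.30 in MPP3 and -0.75 in HSC, and 518 were negative in MPP3. Having been chosen by their HSC effect, these genes have an HSC median that the choice itself enlarges, so the gap between the medians is a description. In the other direction, the 25 genes that rose in Jak2V617F MPP3 had medians of 0.49 in MPP3 and 0.55 in HSC, and 20 of them also rose in HSC. The 57 that fell in Jak2V617F MPP3 had medians of -1.20 in MPP3 and -0.67 in HSC, and 27 of them also fell in HSC. No gene was called in opposite directions in the cell types.

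**Figure D1:**
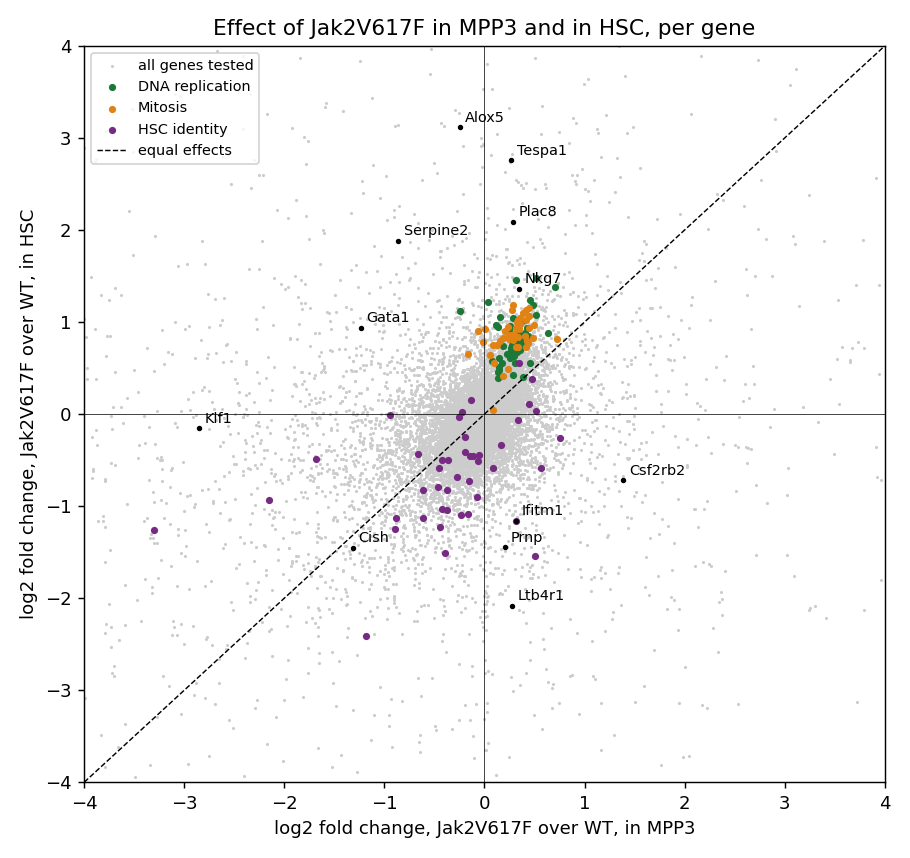
Effect of Jak2V617F in MPP3 (horizontal axis) and in HSC (vertical axis) as log2 fold changes over WT, 1 point per gene, with the line of equal effects. The plot covers effects up to 4 in size, which leaves 456 of 14179 genes outside, Gbp4 among them. The 197 genes with a negative difference at an unadjusted p under 0.01 lie above the line and the 122 positive ones below it, and in both sets the HSC effect is usually the larger.

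The 319 genes at an unadjusted p under 0.01 had recurrent forms. Of the 197 negative ones, 104 had the same sign in MPP3 and HSC with the larger effect in HSC, 80 had opposite signs and 13 had the same sign with the larger effect in MPP3. Their median effects were 0.04 in MPP3 and 0.83 in HSC, and 137 of them were called in HSC against 15 in MPP3. Of the 122 positive ones, 88 had opposite signs, 32 the same sign with the larger effect in HSC and 2 the same sign with the larger effect in MPP3. Their medians were 0.20 in MPP3 and -0.77 in HSC. Genes chosen by their difference of effects are pushed by that choice towards opposite signs, so these forms are a description. The signs are those of point estimates, and no gene was called in both cell types with opposite signs. The commonest function among the negative ones on the lists used here was cell division: 36 were on the DNA replication or mitosis lists, and none of the 122 positive ones was.

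The genes of DNA synthesis and of cell division had a lower median Jak2V617F effect in MPP3 than in HSC. All 49 DNA replication genes tested had a negative difference, as did 50.8% of all genes, with a median of -0.47 (all genes -0.01), and 18 were at an unadjusted p under 0.01, against 1.39% of all genes in that direction. Of 45 mitosis genes, 44 were negative, with a median of -0.61, and 18 were at that level. No single member passed the adjusted threshold in edgeR, and DESeq2 called 10 replication and 7 mitosis genes, all negative, against 0.832% of all genes. The median effect on replication genes was 0.30 in MPP3, where 1 of 49 rose (0.176% of all genes), and 0.80 in HSC, where 43 rose (5.77% of all genes). For mitosis genes it was 0.31 in MPP3, where 1 of 45 rose, and 0.85 in HSC, where 40 rose. The count of 36 members at an unadjusted p under 0.01 became 21 without Jak2V617F HSC replicate 4.

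The levels of the 4 groups show where the gap sits. With each gene's WT MPP3 mean set to 100%, the median replication gene stood at 123% in Jak2V617F MPP3 and 100% in WT MPP3, against 111% in Jak2V617F HSC and 65.9% in WT HSC. Mitosis genes stood at 125% in Jak2V617F MPP3 and 100% in WT MPP3, against 120% in Jak2V617F HSC and 66.4% in WT HSC. WT HSC was the low group: in 35 of 49 replication genes and 19 of 45 mitosis genes, all 4 WT HSC libraries lay below the other 12 libraries, which held for 3.08% of all genes. The summed level of the replication list ran from 11280 to 13540 CPM in Jak2V617F MPP3 and 9732 to 11160 CPM in WT MPP3, and from 9379 to 12330 CPM in Jak2V617F HSC and 5958 to 7211 CPM in WT HSC.

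Replication and mitosis genes are known to be switched on by different promoter elements, the E2F site before S phase and the CHR element, often with CCAAT boxes, before mitosis. Promoters from RefSeq (GRCm38.p6, 250 bases before to 50 after the start) were found for 10389 of the genes tested, and were searched on both strands. The E2F letters TTTNGCGC were in 11 of 40 replication promoters (27.5%), against 2.33% of all promoters. The CHR letters TTTGAA were in 27 of 37 mitosis promoters (73%), against 12% of all. CCAAT was in 28 of the 37 (75.7%) and also in 24 of the 40 replication promoters (60%), against 38.8% of all. CHR with CCAAT was in 24 of the 37 mitosis promoters (64.9%), against 5.08% of all. A match is a description of the letters and does not show a bound site. Printed below are the promoters of Mcm5, which encodes a subunit of the replicative helicase and had the smallest p among replication genes with the E2F letters, and of the mitosis genes Mki67 and Cdk1. Capitals mark the E2F letters, with an overlapping second match on the other strand, in Mcm5, and the CHR letters in the others. The Cdk1 window also holds 1 match to the E2F letters, left in lower case. The Mcm5 window is chr8:75109259-75109558 on the plus strand, that of Mki67 chr7:135716330-135716629 on the minus strand and that of Cdk1 chr10:69352863-69353162 on the minus strand.
Mcm5: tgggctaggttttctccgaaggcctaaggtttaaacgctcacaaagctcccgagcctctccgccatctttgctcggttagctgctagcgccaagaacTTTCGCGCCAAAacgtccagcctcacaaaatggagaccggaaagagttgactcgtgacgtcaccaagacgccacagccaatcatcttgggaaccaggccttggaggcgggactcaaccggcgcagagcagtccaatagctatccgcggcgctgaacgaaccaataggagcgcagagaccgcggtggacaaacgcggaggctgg
Mki67: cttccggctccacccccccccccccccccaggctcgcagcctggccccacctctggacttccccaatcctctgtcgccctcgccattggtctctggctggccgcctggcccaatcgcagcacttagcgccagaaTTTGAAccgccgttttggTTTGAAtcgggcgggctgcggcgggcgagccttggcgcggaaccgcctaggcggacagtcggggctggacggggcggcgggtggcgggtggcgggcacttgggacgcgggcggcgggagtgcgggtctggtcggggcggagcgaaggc
Cdk1: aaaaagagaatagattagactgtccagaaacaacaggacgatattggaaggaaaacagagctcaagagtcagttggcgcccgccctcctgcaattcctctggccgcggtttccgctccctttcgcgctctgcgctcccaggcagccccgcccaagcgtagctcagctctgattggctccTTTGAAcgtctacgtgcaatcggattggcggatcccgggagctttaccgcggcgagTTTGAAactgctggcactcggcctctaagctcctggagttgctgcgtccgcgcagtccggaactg

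Tyms, which makes thymidylate for DNA synthesis (chr5:30058202-30073617), led the replication list. It stood at 220.1, 208, 192 and 222 CPM in Jak2V617F MPP3, against 173, 202, 206 and 176 CPM in WT MPP3. Its HSC levels were 259, 205, 203 and 234 CPM in Jak2V617F, against 96.4, 105, 122 and 109 CPM in WT. The MPP3 libraries of both genotypes and the Jak2V617F HSC libraries overlapped, and the 4 WT HSC libraries lay apart and low. Its effect was 0.15 ± 0.11 in MPP3 (adjusted p = 0.538) and 1.06 ± 0.11 in HSC (adjusted p = 0.000292), and the difference of effects, -0.90 ± 0.15, had edgeR adjusted p = 0.11. DESeq2 gave adjusted p = 1.07e-05 for it. Pole encodes the catalytic subunit of the leading-strand polymerase epsilon. It was at 116, 125, 93.7 and 89.7 CPM in Jak2V617F MPP3 and 76.1, 116, 98.6 and 102 CPM in WT MPP3, and at 109.9, 109.7, 98.6 and 107 CPM in Jak2V617F HSC and 51.6, 55.7, 61.3 and 49.2 CPM in WT HSC. Again the WT HSC libraries did not reach the other groups, and the difference was -0.85 ± 0.18 (edgeR adjusted p = 0.247). Timeless, part of the complex that protects the replication fork, had effects of 0.12 ± 0.10 in MPP3 and 0.81 ± 0.10 in HSC and a difference of -0.69 ± 0.15 (edgeR adjusted p = 0.259). The helicase genes Mcm2 and Mcm5 had differences of -0.48 ± 0.17 and -0.64 ± 0.17 (edgeR adjusted p = 0.45 and 0.35), with effects in HSC of 0.85 ± 0.12 and 1.01 ± 0.12, both called.

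Among mitosis genes, Cdca8 encodes borealin of the chromosomal passenger complex. It stood at 230.2, 202, 227 and 256 CPM in Jak2V617F MPP3 and 178, 185, 192 and 178 CPM in WT MPP3, and at 224, 198, 218 and 254 CPM in Jak2V617F HSC and 102, 106, 119 and 141 CPM in WT HSC. The genotypes did not overlap in either cell type, and the gap was wider in HSC, with an effect of 0.31 ± 0.09 in MPP3 (adjusted p = 0.113), 0.94 ± 0.09 in HSC (adjusted p = 0.000238) and a difference of -0.63 ± 0.12 (edgeR adjusted p = 0.196). Cdk1, the kinase that starts mitosis, stood at 152, 132, 111 and 147 CPM in Jak2V617F MPP3 and 103, 124, 97.6 and 83.1 CPM in WT MPP3. In HSC it stood at 152, 122, 124 and 136 CPM in Jak2V617F and 63.1, 68.7, 65.3 and 64.04 CPM in WT. Its genotypes overlapped in MPP3 and were apart in HSC, and its difference was -0.61 ± 0.17 (edgeR adjusted p = 0.383). Mki67, the gene of the proliferation antigen Ki-67, showed the gap plainly: 179.5, 189.5, 119 and 124 CPM in Jak2V617F MPP3 and 146, 226, 131 and 121 CPM in WT MPP3, against 188, 166, 153 and 135 CPM in Jak2V617F HSC and 85.7, 97.00, 91.3 and 94.2 CPM in WT HSC. Its MPP3 libraries were interleaved, with an effect of -0.02 ± 0.14, while all Jak2V617F HSC libraries exceeded all WT HSC libraries, with an effect of 0.79 ± 0.14, and the difference was -0.80 ± 0.20 (edgeR adjusted p = 0.325). The centromeric histone gene Cenpa and the kinetochore gene Pmf1 had differences of -0.61 ± 0.13 and -0.60 ± 0.12 (edgeR adjusted p = 0.296 and 0.217).

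The batches gave the same direction. The median difference of effects of replication genes was -0.43, -0.66, -0.34 and -0.49 within batches 1 to 4, and that of mitosis genes -0.54, -0.56, -0.67 and -0.41. In batch 3 the median effect on replication genes was 0.05 in MPP3 and 0.40 in HSC, the smallest of the 4 batches in both cell types. Batch 2 had 0.27 in MPP3 and 0.92 in HSC.

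**Figure D2:**
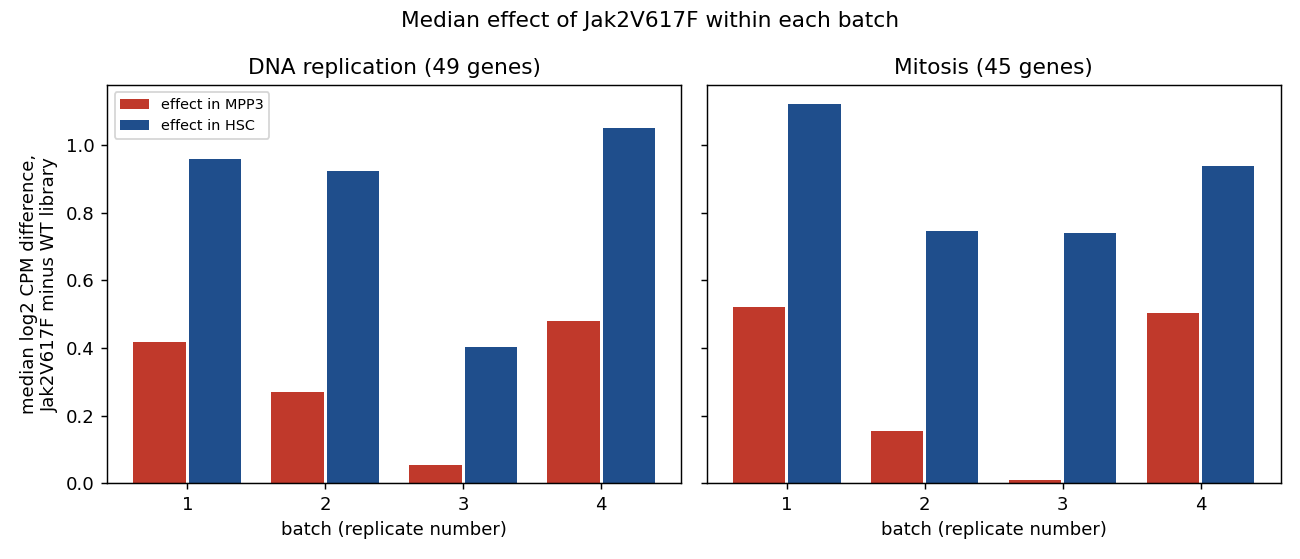
Median log2 CPM difference of Jak2V617F minus WT within each batch (replicate numbers 1 to 4, horizontal axis), for MPP3 and HSC, with a panel for 49 DNA replication genes and one for 45 mitosis genes. The HSC bar exceeds the MPP3 bar in each of the 4 batches of both panels; in batch 1 the replication bars are 0.42 for MPP3 and 0.96 for HSC.

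Other growth lists differed less. Oxidative phosphorylation genes had a median difference of -0.13, with 28 of 35 negative and none at an unadjusted p under 0.01. Their median effects were 0.24 in MPP3, where none was called, and 0.35 in HSC, where 24 rose, against 5.77% of all genes. Cyc1, cytochrome c1 of complex III, led with -0.41 ± 0.17 (edgeR adjusted p = 0.556). Ribosome biogenesis genes had nearly equal medians of 0.23 in MPP3 and 0.26 in HSC. In HSC 10 of 35 were called up, against 5.77% of all genes, and in MPP3 none. Serine and folate one-carbon enzymes had a median difference of -0.17 over 18 genes. The list holds Mthfd2, a mitochondrial folate enzyme that rose in HSC by 1.24 ± 0.17 and had 0.63 ± 0.17 in MPP3. Cell cycle brakes had medians of -0.29 in MPP3 and -0.31 in HSC over 21 genes. Cholesterol synthesis had 0.08 in MPP3 and 0.08 in HSC over 24 genes, none at an unadjusted p under 0.01. Glycolysis and hypoxia genes had 0.07 and -0.21 over 31 genes, and 1 was at that level, the hexokinase gene Hk2 with 0.67 ± 0.19 (edgeR adjusted p = 0.383).

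**Figure D3:**
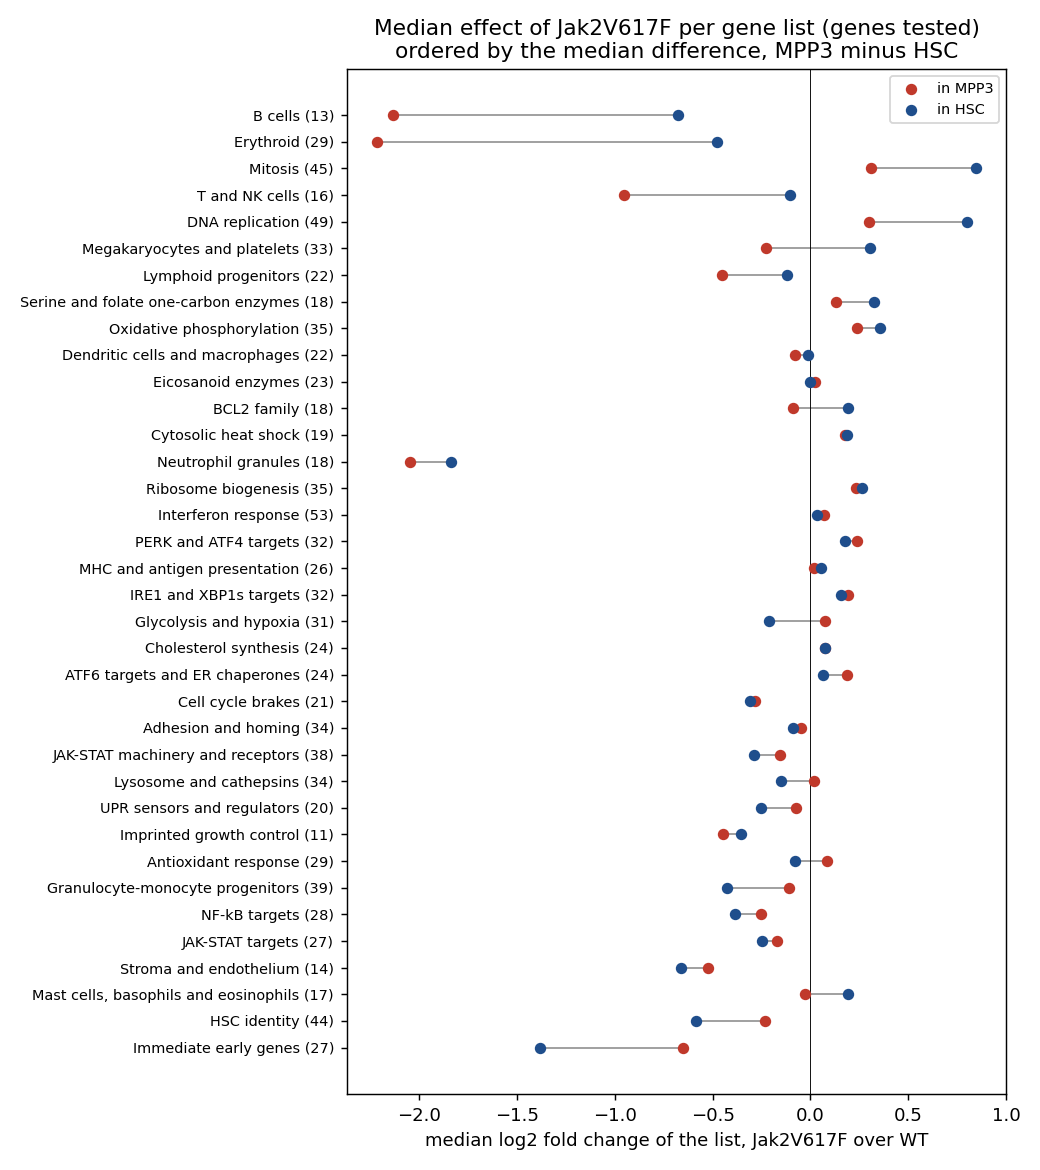
Median effect of Jak2V617F (log2) in MPP3 and in HSC for each gene list, 1 row per list. Mitosis and DNA replication genes lie at 0.31 and 0.30 in MPP3 and at 0.85 and 0.80 in HSC, while immediate early genes lie at -0.65 in MPP3 and -1.38 in HSC, and erythroid genes at -2.22 in MPP3 and -0.48 in HSC.

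A further set of transcripts rose in Jak2V617F HSC and had no called effect in MPP3. Nkg7, which encodes a granule membrane protein (chr7:43437073-43438249), stood at 528, 484, 554 and 507 CPM in Jak2V617F MPP3 and 327, 415, 490.1 and 418 CPM in WT MPP3, and at 132, 163, 167 and 151 CPM in Jak2V617F HSC and 48.6, 50.7, 84.1 and 59.00 CPM in WT HSC. The genotypes overlapped in MPP3 and were apart in HSC, with an effect of 0.35 ± 0.11 in MPP3 (adjusted p = 0.148), 1.36 ± 0.11 in HSC (adjusted p = 0.000167) and a difference of -1.01 ± 0.16 (edgeR adjusted p = 0.0688). Plac8, a gene of myeloid progenitors, stood at 709.7, 714, 598 and 685 CPM in Jak2V617F MPP3 and 589, 614, 502 and 514 CPM in WT MPP3. The HSC levels were 94.97, 146, 148 and 102 CPM in Jak2V617F and 24.5, 18.2, 28.1 and 46.1 CPM in WT. The lowest Jak2V617F HSC library exceeded the highest WT one, both far below every MPP3 library, and the difference was -1.81 ± 0.32 (edgeR adjusted p = 0.151). DESeq2 called both genes, with adjusted p = 3.36e-07 for Nkg7 and 0.000371 for Plac8, and limma-voom called both as well (adjusted p = 0.0376 each).

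Alox5, the 5-lipoxygenase that starts leukotriene synthesis (chr6:116410077-116461178), had the largest effect in HSC of these genes. It stood at 5.202, 6.505, 5.63 and 3.42 CPM in Jak2V617F MPP3 and 5.64, 5.88, 6.69 and 6.79 CPM in WT MPP3, against 15.2, 16.9, 25.04 and 10.7 CPM in Jak2V617F HSC and 1.77, 0.9700, 1.301 and 3.87 CPM in WT HSC. The WT HSC mean was below both MPP3 means, though WT HSC replicate 4 exceeded Jak2V617F MPP3 replicate 4. Every Jak2V617F HSC library was above every MPP3 library. The effect was -0.25 ± 0.40 in MPP3 and 3.12 ± 0.44 in HSC (adjusted p = 0.00109), and the difference was -3.37 ± 0.58 (edgeR adjusted p = 0.128). Tespa1, an adaptor of antigen-receptor signalling in thymocytes, stood at 90.4, 85.2, 107 and 113 CPM in Jak2V617F MPP3 and 80.8, 56.2, 79.01 and 118 CPM in WT MPP3. In HSC it was at 8.67, 5.58, 2.16 and 6.79 CPM in Jak2V617F and 0.555, 1.37, 0.833 and 0.524 CPM in WT. Its HSC groups were apart at a low level, and its difference was -2.49 ± 0.52 (edgeR adjusted p = 0.247). Cd48, a surface protein that HSC lack and progenitors carry, stood at 334, 268, 242 and 259.8 CPM in Jak2V617F MPP3 and 194, 216, 163 and 168 CPM in WT MPP3, against 8.67, 4.91, 5.78 and 7.59 CPM in Jak2V617F HSC and 3.13, 1.94, 1.74 and 3.197 CPM in WT HSC. It was higher in every Jak2V617F library than in any WT library of the same cell type, with effects of 0.56 ± 0.15 in MPP3 (adjusted p = 0.1) and 1.43 ± 0.17 in HSC (adjusted p = 0.000468) and a difference of -0.87 ± 0.23 (edgeR adjusted p = 0.35). CD48 is one of the markers by which these cell types are usually sorted apart, and the part of MPP-like cells within the HSC gate in these values was not tested.

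The whole list of granulocyte-monocyte progenitor genes did not follow Nkg7 and Plac8. Of 39 tested, 21 had a positive and 18 a negative difference, the median was 0.12, and 3 positive and 2 negative ones were at an unadjusted p under 0.01. In HSC 3 rose and 8 fell, with a median of -0.43, and in MPP3 none was called, with a median of -0.11. Mpo had effects of -0.05 ± 1.02 in MPP3 and -0.91 ± 1.29 in HSC. Fcer1g, the signalling chain shared by Fc receptors, was 1 of the 3 positive genes. It stood at 45.1, 36.7, 44.2 and 34.7 CPM in Jak2V617F MPP3 and 50.6, 53.8, 35.6 and 46.7 CPM in WT MPP3, against 10.3, 10.5, 10.9 and 11.4 CPM in Jak2V617F HSC and 24.6, 31.7, 24.9 and 25.7 CPM in WT HSC. The HSC groups were apart and the MPP3 groups overlapped. It fell in HSC (-1.30 ± 0.15, adjusted p = 0.00044) and had -0.21 ± 0.15 in MPP3 (adjusted p = 0.554), and the difference was 1.10 ± 0.21 (edgeR adjusted p = 0.196). Cd63, a granule and lysosome tetraspanin on the same list, had a difference of 0.41 ± 0.11 (edgeR adjusted p = 0.35).

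**Figure D4:**
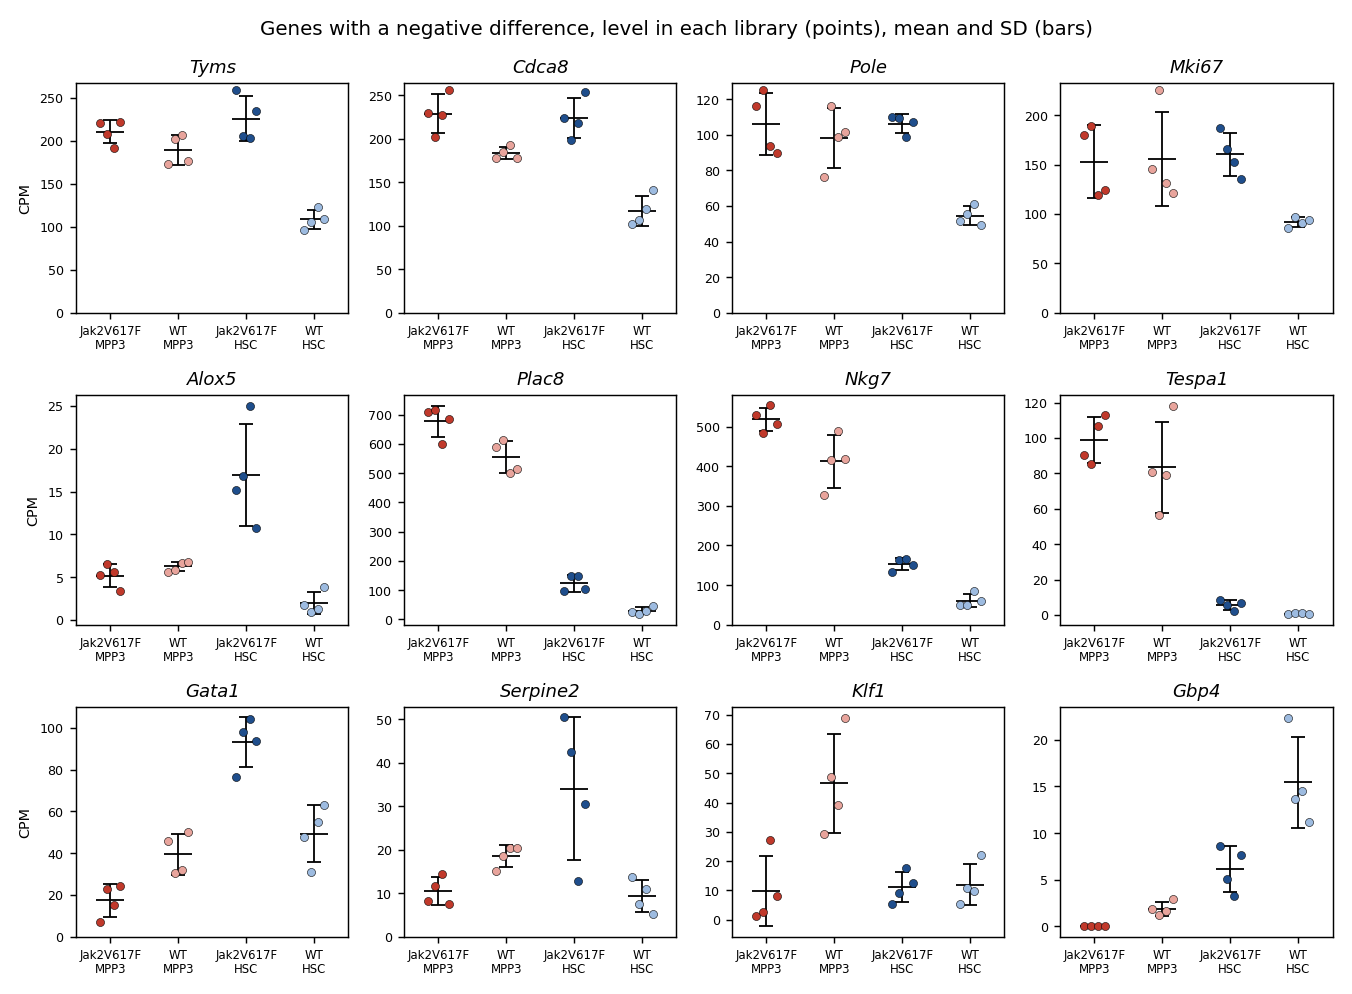
CPM per library for genes with a negative difference of effects, in the order Jak2V617F MPP3, WT MPP3, Jak2V617F HSC and WT HSC, with 4 points a group and bars for the mean and SD. Tyms, Cdca8, Pole and Mki67 have WT HSC as the low group, Nkg7 and Plac8 rise in Jak2V617F HSC far below the MPP3 level, and Klf1 and Gbp4 are low in Jak2V617F MPP3.

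Megakaryocyte and erythroid genes also had lower median effects in MPP3 than in HSC. Of 29 erythroid genes, 23 had a negative difference, with a median of -0.86 (all genes -0.01), and 5 were at an unadjusted p under 0.01 in that direction, against 1.39% of all genes. Their median effect was -2.22 in MPP3, where 2 fell, and -0.48 in HSC, where 1 rose and 2 fell. Of 33 megakaryocyte and platelet genes, 24 were negative, with a median of -0.35, and 3 were at that level. Their median effect was -0.23 in MPP3, where 1 rose and 1 fell, and 0.30 in HSC, where 6 rose and 3 fell. Gata1 is on both lists.

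Gata1, the transcription factor that commits cells to the red cell and megakaryocyte lineages (chrX:7959260-7978071), had effects of opposite sign. It stood at 7.18, 22.9, 14.9 and 24.4 CPM in Jak2V617F MPP3, against 45.6, 30.5, 31.9 and 50.2 CPM in WT MPP3. HSC held 76.4, 97.9, 104 and 93.8 CPM in Jak2V617F, against 47.8, 31.04, 55.1 and 63.1 CPM in WT. The genotypes did not overlap in either cell type, Jak2V617F being the lower in MPP3 and the higher in HSC. The effects were -1.23 ± 0.29 in MPP3 (adjusted p = 0.0778) and 0.94 ± 0.29 in HSC (adjusted p = 0.0557), each short of the threshold, and the difference was -2.17 ± 0.41 (edgeR adjusted p = 0.185). DESeq2 gave adjusted p = 1.56e-05 for it. Klf1, the erythroid factor that switches on globin genes, stood at 1.24, 2.57, 27.3 and 8.07 CPM in Jak2V617F MPP3 and 29.3, 48.8, 39.2 and 69.01 CPM in WT MPP3, against 5.38, 9.01, 17.6 and 12.4 CPM in Jak2V617F HSC and 5.38, 10.7, 9.84 and 22.1 CPM in WT HSC. It fell in MPP3 by its own test (-2.85 ± 0.57, adjusted p = 0.0471), with Jak2V617F MPP3 replicate 3 next to the WT libraries, had -0.15 ± 0.51 in HSC, and had a difference of -2.70 ± 0.74 (edgeR adjusted p = 0.383). Serpine2, a secreted inhibitor of thrombin and other proteases, stood at 8.16, 11.7, 14.5 and 7.46 CPM in Jak2V617F MPP3 and 15.1, 18.6, 20.3 and 20.4 CPM in WT MPP3, against 50.6, 42.4, 12.7 and 30.4 CPM in Jak2V617F HSC and 13.6, 7.52, 10.96 and 5.22 CPM in WT HSC. Replicate 3 of Jak2V617F HSC lay within the WT HSC range and the other 3 above it. The effect in HSC was 1.89 ± 0.39 (adjusted p = 0.00817) and the difference -2.75 ± 0.54 (edgeR adjusted p = 0.196).

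The erythroid median rests on low counts and on single libraries. It was -2.12 without Jak2V617F MPP3 replicate 3, -0.57 without Jak2V617F MPP3 replicate 1 and -0.54 without WT MPP3 replicate 2. Over the 29 genes the summed level ran from 1539 to 2994 CPM in Jak2V617F MPP3 and 2992 to 4196 CPM in WT MPP3, and from 3416 to 4092 CPM in Jak2V617F HSC and 4051 to 4981 CPM in WT HSC. Slc4a1, the band 3 anion exchanger of red cells and a defining marker, ran from 0 to 3.401 CPM in Jak2V617F MPP3 and 0.186 to 3.96 CPM in WT MPP3. In HSC it ran from 0 to 0.974 CPM in Jak2V617F and 0.208 to 18.8 CPM in WT. Its medians were 0.18 and 3.06 CPM in Jak2V617F and WT MPP3, and 0.093 and 8.55 CPM in Jak2V617F and WT HSC. This marker was thus highest in WT HSC and was lower in Jak2V617F HSC as well. The part of erythroid cells in the sorted MPP3 and HSC in these values was not tested. The summed level of the megakaryocyte list ran from 1655 to 2025 CPM in Jak2V617F MPP3 and 1749 to 2257 CPM in WT MPP3, and from 4567 to 5248 CPM in Jak2V617F HSC and 5136 to 5743 CPM in WT HSC. Its mean was lower in Jak2V617F in both cell types, unlike the list's median effect in HSC. The marker Pf4 ran from 236 to 333 CPM in Jak2V617F HSC and 107 to 189 CPM in WT HSC. Itga2b ran from 499 to 823 CPM in Jak2V617F HSC and 377 to 495.5 CPM in WT HSC. The genotypes overlapped in HSC for the marker Gp9, and in MPP3 for Pf4, Itga2b and Gp9.

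Genes of stem cell identity went the other way, with a more negative median effect in HSC than in MPP3. Of 44 tested, 35 had a positive difference, with a median of 0.37, and 5 were at an unadjusted p under 0.01, against 0.86% of all genes; 1 was without WT HSC replicate 2. None passed the adjusted threshold in edgeR, and DESeq2 called 2. The median effect was -0.23 in MPP3, where 3 fell, and -0.58 in HSC, where 18 fell. Over all genes, 0.402% fell in MPP3 and 4.06% in HSC. Within batches 1 to 4 the median difference was 0.12, 0.60, 0.40 and 0.36. With WT MPP3 at 100%, the median identity gene stood at 86.2% in Jak2V617F MPP3, against 181% in Jak2V617F HSC and 238% in WT HSC, so that Jak2V617F HSC remained above MPP3.

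Procr, the endothelial protein C receptor used to sort HSC, stood at 33.2, 27.6, 27.9 and 24.02 CPM in Jak2V617F MPP3 and 21.1, 34.6, 32.2 and 41.01 CPM in WT MPP3. In HSC it stood at 36.1, 38.9, 63.6 and 35.5 CPM in Jak2V617F and 67.96, 118, 98.8 and 84.2 CPM in WT. The genotypes were interleaved in MPP3 and apart in HSC, where it fell (-1.09 ± 0.22, adjusted p = 0.00677), against -0.16 ± 0.22 in MPP3, with a difference of 0.92 ± 0.30 (edgeR adjusted p = 0.428). Hlf, a transcription factor that keeps HSC quiescent, stood at 129, 128, 177 and 158 CPM in Jak2V617F MPP3 and 209.6, 169.8, 182 and 205 CPM in WT MPP3, against 152, 141, 152 and 155 CPM in Jak2V617F HSC and 268, 271, 229 and 292 CPM in WT HSC. The Jak2V617F HSC libraries fell to within the range of Jak2V617F MPP3, and the difference was 0.45 ± 0.15 (edgeR adjusted p = 0.439). Fgd5, a guanine nucleotide exchange factor that marks HSC, had the smallest p of the list after Ifitm1, with 0.51 ± 0.39 in MPP3, -1.54 ± 0.38 in HSC (adjusted p = 0.0221) and a difference of 2.05 ± 0.54 (edgeR adjusted p = 0.35). Mecom, the stem cell factor EVI1, had 0.08 ± 0.19 in MPP3 and -0.58 ± 0.19 in HSC and a difference of 0.67 ± 0.27 (edgeR adjusted p = 0.555). Slamf1 and the stem cell factor receptor gene Kit had differences of 0.40 ± 0.46 and 0.20 ± 0.13, and Flt3, the receptor of lymphoid-primed progenitors, had -0.50 ± 0.22 (edgeR adjusted p = 0.927, 0.779 and 0.616).

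Immediate early genes, the transcription factors and phosphatases that rise within minutes of a stimulus, had the largest positive median of the 36 lists. Of 27 tested, 24 had a positive difference, with a median of 0.52, but none was at an unadjusted p under 0.01. Members fell in both cell types: the median effect was -0.65 in MPP3, where 3 fell, and -1.38 in HSC, where 15 fell. Over all genes, 0.402% fell in MPP3 and 4.06% in HSC. Rhob, a small GTPase, and Csrnp1, a nuclear protein, had the smallest p, with differences of 1.36 ± 0.47 and 1.04 ± 0.35 (edgeR adjusted p = 0.448 and 0.439). Within batches the median difference was -0.06, 0.79, 0.96 and 0.33, so batch 1 did not share it. Batch 1 also stood apart in level: the summed level of the list was 1510, 970.1, 679.5 and 605 CPM in Jak2V617F MPP3 and 6784, 1368, 908 and 1001 CPM in WT MPP3, against 2195, 950.6, 695 and 646 CPM in Jak2V617F HSC and 10740, 2348, 1824 and 1621 CPM in WT HSC. Both WT libraries of batch 1 were far above the other WT libraries. Without batch 1 the median difference was 0.78, and the median effects were -0.33 in MPP3, where none was called, and -1.10 in HSC, where 10 fell. The median difference was 0.77 without WT MPP3 replicate 1 and 0.42 without WT HSC replicate 1. These genes also respond to cell handling, whose part was not tested. Imprinted growth-control genes had a median difference of 0.10 over 11 genes, with 2 called down in HSC and none in MPP3.

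Of all genes with a positive difference, Ifitm1 had the smallest p. It encodes an interferon-induced membrane protein, is on the HSC identity and interferon lists, and lies at chr7:140967221-140969825. It stood at 536, 378, 327 and 416 CPM in Jak2V617F MPP3, against 365, 312, 295 and 354 CPM in WT MPP3. In HSC it stood at 296, 287, 389 and 261 CPM in Jak2V617F, against 592, 794, 728 and 629.6 CPM in WT. Jak2V617F was higher in 4 of 4 batches in MPP3, with overlapping groups, and lower in 4 of 4 batches in HSC, with groups that did not overlap. The effects were 0.32 ± 0.16 in MPP3 (adjusted p = 0.363) and -1.16 ± 0.16 in HSC (adjusted p = 0.00101). The difference was 1.48 ± 0.23 (edgeR adjusted p = 0.0688), with adjusted p = 1.98e-08 in DESeq2, 0.0376 in limma-voom and 0.0189 in edgeR without the block. The Ifitm family has close copies, among which reads can be shared.

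Prnp, the prion protein, stood at 9.97, 7.65, 8.62 and 4.91 CPM in Jak2V617F MPP3 and 6.28, 6.04, 6.102 and 8.51 CPM in WT MPP3, against 16.1, 14.9, 11.6 and 15.8 CPM in Jak2V617F HSC and 46.3, 41.95, 28.6 and 42.7 CPM in WT HSC. It was low in MPP3 of both genotypes and fell in HSC (-1.45 ± 0.22, adjusted p = 0.00164), with a difference of 1.66 ± 0.31 (edgeR adjusted p = 0.185). Tnfrsf1b, the tumour necrosis factor receptor 2, stood at 79.8, 73.1, 86.5 and 84.6 CPM in Jak2V617F MPP3 and 87.7, 78.8, 91.6 and 90.7 CPM in WT MPP3, against 58.6, 65.97, 94.9 and 64.9 CPM in Jak2V617F HSC and 121, 139, 147 and 109 CPM in WT HSC. Jak2V617F HSC lay at or near the MPP3 level and WT HSC above it, with a difference of 0.77 ± 0.16 (edgeR adjusted p = 0.259). The adaptor gene Crk differed from these in that its effect was in MPP3. It stood at 30.8, 28.3, 29.1 and 29.7 CPM in Jak2V617F MPP3 and 16.5, 18.7, 14.7 and 15.7 CPM in WT MPP3, against 33.8, 29.7, 20.7 and 23.4 CPM in Jak2V617F HSC and 28.3, 31.5, 29.2 and 26.1 CPM in WT HSC. Crk rose in MPP3 (0.85 ± 0.14, adjusted p = 0.0304) to the level of HSC, where its effect was -0.11 ± 0.14, and the difference was 0.97 ± 0.20 (edgeR adjusted p = 0.247). Csad, an enzyme of taurine synthesis, the potassium channel gene Kcnk5 and the polysialyltransferase gene St8sia4 had differences of 0.95 ± 0.19, 0.68 ± 0.15 and 1.05 ± 0.24 (edgeR adjusted p = 0.212, 0.289 and 0.303), and each fell in HSC. Ltb4r1, the leukotriene B4 receptor, fell in HSC at a low level (0.335 CPM in Jak2V617F and 1.38 CPM in WT) and had a difference of 2.36 ± 0.54 (edgeR adjusted p = 0.303). Tmem154 and Fam129b had 1.54 ± 0.35 and 1.25 ± 0.29 (edgeR adjusted p = 0.303 and 0.308).

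**Figure D5:**
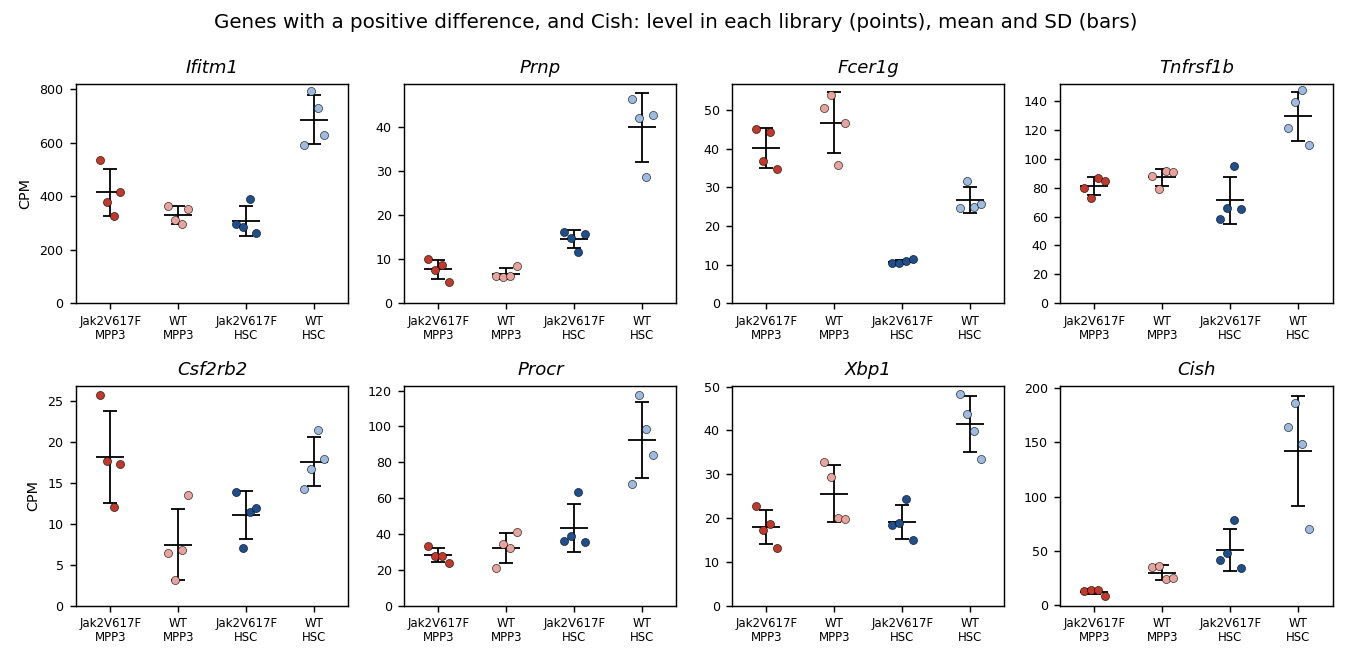
CPM per library for genes with a positive difference of effects and for Xbp1 and Cish, in the order Jak2V617F MPP3, WT MPP3, Jak2V617F HSC and WT HSC, with 4 points a group and bars for the mean and SD. In Ifitm1, Prnp, Fcer1g, Tnfrsf1b and Procr the 4 WT HSC libraries lie above the 4 Jak2V617F HSC libraries while the MPP3 groups overlap, and in Cish both cell types have the lower mean in Jak2V617F.

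No gene on the lists of JAK-STAT machinery and receptors or of JAK-STAT targets passed the adjusted threshold for the difference of effects in edgeR. DESeq2 called 1, on the machinery and receptor list, and none on the target list. Of 38 genes of the JAK-STAT machinery and its receptors, 2 were positive at an unadjusted p under 0.01 and none negative, against 0.86% and 1.39% of all genes, with medians of -0.15 in MPP3, where 1 fell, and -0.29 in HSC, where 1 rose and 10 fell. The receptor chain Csf2rb2, which in the mouse serves interleukin 3, was the leading one. It stood at 25.7, 17.7, 12.1 and 17.4 CPM in Jak2V617F MPP3 and 6.396, 3.15, 6.79 and 13.5 CPM in WT MPP3, against 13.9, 7.04, 11.4 and 11.98 CPM in Jak2V617F HSC and 14.3, 16.7, 21.5 and 17.9 CPM in WT HSC. Jak2V617F was higher in MPP3 and lower in HSC in 4 of 4 batches, with a difference of 2.11 ± 0.47 (edgeR adjusted p = 0.296). Its near copy Csf2rb can share reads with it, so its level is uncertain. Il4ra, the interleukin 4 receptor, had 0.48 ± 0.16 (edgeR adjusted p = 0.428). Of 27 JAK-STAT target genes, 18 had a positive difference, with a median of 0.18, and 1 was positive at an unadjusted p under 0.01 (0.86% of all genes), the cyclin gene Ccnd1 with 0.71 ± 0.20 (edgeR adjusted p = 0.383). The target list had medians of -0.17 in MPP3, where 1 fell, and -0.25 in HSC, where 7 fell. Over all genes, 5.77% rose and 4.06% fell in HSC, and 0.402% fell in MPP3.

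Cish, the feedback inhibitor that STAT5 induces, fell in both cell types. It stood at 12.6, 14.1, 13.8 and 8.66 CPM in Jak2V617F MPP3 and 34.9, 36.3, 23.6 and 24.7 CPM in WT MPP3, against 41.96, 48.01, 78.9 and 34.5 CPM in Jak2V617F HSC and 164, 186, 149 and 70.1 CPM in WT HSC. The MPP3 groups were apart, and in HSC replicate 3 of Jak2V617F exceeded replicate 4 of WT. The effects were -1.31 ± 0.22 in MPP3 (adjusted p = 0.0276) and -1.45 ± 0.21 in HSC (adjusted p = 0.00143), and the difference was 0.14 ± 0.30 (edgeR adjusted p = 0.977), with a direction that flipped in some alternatives. Its RefSeq promoter window at chr9:107296409-107296708 on the plus strand is shown since it holds 2 copies of the STAT letters TTCNNNGAA, in capitals. These letters were in 4 of 18 promoters of the target list (22.2%), against 6.82% of all.
Cish: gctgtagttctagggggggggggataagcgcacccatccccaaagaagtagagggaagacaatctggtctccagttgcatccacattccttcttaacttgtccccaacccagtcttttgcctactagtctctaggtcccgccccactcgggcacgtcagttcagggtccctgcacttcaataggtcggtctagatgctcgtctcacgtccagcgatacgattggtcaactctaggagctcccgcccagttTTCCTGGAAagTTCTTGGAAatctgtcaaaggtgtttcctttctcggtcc
The kinase gene Pim1, another STAT5 target, had -0.36 ± 0.13 in MPP3 and fell in HSC (-0.88 ± 0.13, adjusted p = 0.00117), with a difference of 0.52 ± 0.18 (edgeR adjusted p = 0.439). Socs2, a feedback inhibitor of growth hormone signalling, had 0.05 ± 0.30 in MPP3 and 0.24 ± 0.28 in HSC and a difference of -0.19 ± 0.41 (edgeR adjusted p = 0.977).

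Gbp4, an interferon-induced GTPase of the guanylate-binding protein family (chr5:105115767-105139586), was the gene past the threshold. It had no counts in the 4 Jak2V617F MPP3 libraries, against 1.79, 1.17, 1.67 and 2.94 CPM in WT MPP3. HSC held 8.58, 5.11, 3.25 and 7.67 CPM in Jak2V617F, against 22.4, 13.7, 14.5 and 11.2 CPM in WT. The genotypes were apart in both cell types, with Jak2V617F the lower in each. In MPP3 it was at least 23.4-fold lower in Jak2V617F, counted against a floor of 3 counts per library, while in HSC the ratio of Jak2V617F to WT was 0.38 (-1.40 ± 0.36, adjusted p = 0.034). The difference of effects had edgeR adjusted p = 0.0369 and DESeq2 adjusted p = 6.09e-07, and was negative in 4 of 4 batches. The fitted size of the difference depends on how a group without counts is treated and is not given. The call was fragile: limma-voom gave adjusted p = 0.124, and leaving out 1 library ended the call for 12 of the 16 libraries. The adjusted p over those 16 fits ran from 0.0161 without Jak2V617F HSC replicate 3 to 0.165 without Jak2V617F HSC replicate 2. Gbp genes lie in clusters of close copies, so counting can move reads among them.

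The rest of the interferon response did not share a direction. Of 53 genes, 29 had a negative difference, the median was -0.02, and 2 positive and 1 negative one, Gbp4, were at an unadjusted p under 0.01. Effects were called in 3 genes up and 1 down in MPP3, and in 2 up and 2 down in HSC, with medians of 0.07 in MPP3 and 0.03 in HSC. A match to the interferon-stimulated response element, searched by its GAAA repeat on both strands, was in 24 of 37 promoters of the list (64.9%), against 3.22% of all. MHC and antigen presentation genes had a median difference of 0.0049 over 26 genes, and the peptide transporter gene Tap1 was the single one at an unadjusted p under 0.01, with -0.43 ± 0.14 (edgeR adjusted p = 0.439). NF-kB targets had a median difference of 0.14 over 28 genes, with medians of -0.25 in MPP3, where 1 fell, and -0.39 in HSC, where 6 fell. Its 2 positive genes at that level were Nfkbiz, a nuclear IkB protein, with 1.19 ± 0.39, and the adaptor gene Traf1, with 1.23 ± 0.40 (edgeR adjusted p = 0.428 and 0.432).

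The title of the series names the unfolded protein response, which slows translation, expands chaperones and degrades misfolded proteins when the endoplasmic reticulum (ER) is overloaded. No list of that response stood apart in the difference of effects. Of 20 sensors and regulators, none was at an unadjusted p under 0.01, with a median of 0.09, and in HSC 1 rose and 5 fell while none was called in MPP3. Targets of PERK and ATF4 had a median difference of 0.0022 over 32 genes, with near-equal medians of 0.24 in MPP3 and 0.17 in HSC, where 7 rose and 2 fell, against 1 that rose in MPP3. Targets of IRE1 and XBP1s had 0.19 in MPP3 and 0.15 in HSC over 32 genes, and ATF6 targets with ER chaperones 0.19 and 0.07 over 24. Cytosolic heat shock genes had 0.18 and 0.19 over 19 genes, with 4 up and 1 down in HSC and none called in MPP3. Over all genes, 5.77% rose and 4.06% fell in HSC, and 0.176% rose in MPP3. Among the PERK and ATF6 lists the members at an unadjusted p under 0.01 were Asns, asparagine synthetase, with -0.73 ± 0.21, and Derl1, a channel of ER-associated degradation, with -0.60 ± 0.18 (edgeR adjusted p = 0.383 and 0.397).

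Xbp1, whose transcript IRE1 splices, stood at 22.7, 17.3, 18.7 and 13.3 CPM in Jak2V617F MPP3 and 32.9, 29.5, 20.1 and 19.9 CPM in WT MPP3, against 18.4, 18.8, 24.4 and 14.9 CPM in Jak2V617F HSC and 48.4, 43.8, 39.9 and 33.4 CPM in WT HSC. Jak2V617F was lower in 4 of 4 batches in both cell types, and WT HSC had the highest level. It fell in HSC (-1.11 ± 0.16, adjusted p = 0.00143), against -0.51 ± 0.16 in MPP3 (adjusted p = 0.152), and the difference was 0.60 ± 0.23 (edgeR adjusted p = 0.527). Gene counts do not separate its spliced form. Ern1, which encodes IRE1, had -0.80 ± 0.30 in MPP3 and -1.05 ± 0.31 in HSC and a difference of 0.25 ± 0.43, and the chaperone gene Hspa5 had 0.06 ± 0.18, 0.08 ± 0.18 and -0.02 ± 0.26. Atf4 and Ddit3, the factors of the PERK branch, had differences of 0.09 ± 0.19 and 0.0038 ± 0.28. With SEs of 0.19 to 0.43, the sign of these 4 differences is not settled, and each flipped in some alternatives (edgeR adjusted p = 0.966, 1, 0.976 and 1).

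The remaining lists of function had small median differences. They were 0.08 for adhesion and homing (34 genes, 6 down and 1 up in HSC), 0.09 for lysosome and cathepsins (34 genes) and 0.10 for the antioxidant response (29 genes). For the BCL2 family the median was -0.09 (18 genes) and for eicosanoid enzymes -0.10 (23 genes), where Alox5 and the cyclooxygenase gene Ptgs2 were at an unadjusted p under 0.01. Ptgs2 had counts mainly in single WT libraries, with no counts in Jak2V617F MPP3 and 11.98, 0.03002, 0.0531 and 0 CPM in WT MPP3. Ctse, the aspartic protease cathepsin E, fell in MPP3 (-1.57 ± 0.28, adjusted p = 0.0341), with -0.55 ± 0.27 in HSC and a difference of -1.03 ± 0.38 (edgeR adjusted p = 0.489).

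Markers of other cells that a sorted sample can hold also had uneven levels. For B cells, 8 of 13 genes had a negative difference, with a median of -1.66, and 2 fell in MPP3. The median was -3.70 without Jak2V617F MPP3 replicate 3 and -0.62 without Jak2V617F MPP3 replicate 2. Their summed level was 95.7 to 172 CPM in Jak2V617F MPP3 and 160.4 to 776 CPM in WT MPP3, and 55.6 to 74.3 CPM in Jak2V617F HSC and 76.1 to 98.9 CPM in WT HSC. The antibody joining chain gene Jchain stood at 0, 0.363, 0.384 and 0 CPM in Jak2V617F MPP3 and 0, 106, 37.2 and 10.7 CPM in WT MPP3, so that its level lay in 3 WT MPP3 libraries. Neutrophil granule genes had medians of -2.05 in MPP3 and -1.84 in HSC over 18 genes, 1 called down in each, with summed levels of 380.5 to 684 CPM in Jak2V617F MPP3 and 445 to 782 CPM in WT MPP3, and 244 to 293 CPM in Jak2V617F HSC and 414 to 433 CPM in WT HSC. Batch 3 went the other way in both cell types. Within batches 1 to 4 the median effect was -2.51, -4.21, 3.63 and -2.81 in MPP3, and -3.11, -3.51, 0.69 and -0.43 in HSC. The median difference of this list ran from -1.92 to 0.32 when single libraries were left out. Padi4, an enzyme of neutrophil extracellular traps, was called down in both cell types, with -0.72 ± 0.15 in MPP3 and -1.20 ± 0.15 in HSC. T and NK cell genes had a median difference of -0.49 over 16 genes, with summed levels of 56.2 to 88.02 CPM in Jak2V617F MPP3 and 85.6 to 143 CPM in WT MPP3. Cd3e was at 0 in 14 of 16 libraries, but the 2 members of smallest p, Cd4 and Lck, were present. Cd4 ran from 0.0256 to 1.12 CPM in Jak2V617F MPP3 and 3.54 to 9.06 CPM in WT MPP3. In HSC it ran from 0.586 to 3.13 CPM in Jak2V617F and 1.14 to 8.42 CPM in WT. Lck averaged 43.3 CPM in Jak2V617F MPP3 and 63.5 CPM in WT MPP3, against 22.65 CPM in Jak2V617F HSC and 19.98 CPM in WT HSC. The median of the list was -0.97 without Jak2V617F HSC replicate 2 and -0.23 without Jak2V617F HSC replicate 1. Lymphoid progenitor genes had -0.21 over 22 genes.

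Mast cell, basophil and eosinophil genes had a median difference of 0.34 over 17 genes, with summed levels of 907 to 1121 CPM in Jak2V617F MPP3 and 852 to 1108 CPM in WT MPP3. Their median was 0.16 without Jak2V617F MPP3 replicate 2. The basophil protease gene Mcpt8 was at 0 in all 8 HSC libraries. In MPP3 it ran from 11.2 to 29.8 CPM in Jak2V617F and 2.46 to 13.2 CPM in WT. Dendritic cell and macrophage genes had -0.11 over 22 genes, with summed levels of 436 to 1066 CPM in Jak2V617F MPP3, 344 to 649 in WT MPP3, 1107 to 2657 in Jak2V617F HSC and 444 to 1702 in WT HSC, and Itgax at 0 in all 8 HSC libraries. The sign of that median turned with single libraries, from -0.22 without Jak2V617F MPP3 replicate 2 to 0.035 without WT HSC replicate 1. Stroma and endothelium genes had 0.24 over 14 genes, and the 2 at an unadjusted p under 0.01 were the receptor genes Tie1, at 110.4, 113, 186 and 286 CPM in the order Jak2V617F MPP3, WT MPP3, Jak2V617F HSC and WT HSC, and Pdgfrb, at 136, 114, 14.1 and 21.2 CPM. The sign of the list's median turned as well, from -0.14 without Jak2V617F HSC replicate 2 to 0.42 without Jak2V617F MPP3 replicate 4. The endothelial cadherin gene Cdh5 was at most 0.485 CPM in any library. Cxcl12, on the same list, ran from 0 to 12.26 CPM in WT HSC. It was at most 0.172 CPM in Jak2V617F MPP3, 0.7525 CPM in WT MPP3 and 0.779 CPM in Jak2V617F HSC. The part of such cells in the differences above was not tested.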

How the data were processed

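The authors' processing started from RNA of 7000 to 10000 cells per library; per the labels, 10 ng with an integrity number above 8.0 was made into cDNA with a SMARTer Ultra Low kit, amplified for 12 to 15 cycles and read as 150-base pairs. Per the submitters' processing notes the tools were cutadapt 4.0, FastQC, HISAT2 and Salmon with GRCm38 (mm10). Roles, settings, strand protocol and transcript set: not given in the sources used here. As deposited by the authors, each table lists estimated counts per gene without normalization, and these were rounded and tested. The deposited TPM values, per the file headers scaled by effective length and library total, were not used.

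The 29806 gene rows were analysed with GENCODE M21 symbols. The 1910 rows named as transcripts (0.697% to 0.796% of counts) were left out. After filterByExpr, 14179 genes were tested in edgeR 4.0.16 (R 4.3.3) with TMM scaling, robust quasi-likelihood, a term for each of 4 groups and the batch number as a block, leaving 9 residual degrees of freedom. The contrast was the Jak2V617F effect in MPP3 minus that in HSC, and an adjusted p under 0.05 was a call. SE is the log2 value divided by the square root of F. Per the labels the replicate number is the batch, so numbers pair libraries. Deviations from group means of same-numbered libraries correlated at -0.03 to 0.16 over 24 comparisons (across genes), and 16 matched best with their own number. Between MPP3 and HSC of the same genotype every comparison did so, at 0.08 to 0.16, and between genotypes only some did. The block of the main fit was shared by both genotypes.

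The members and the 36 lists (1005 genes, 999 matched, 938 tested) were chosen with earlier results of these data known. The lists were described by counts and medians, with no test of a list, and some share genes. Genes were named by rule: the 12 genes of smallest p in each direction with a mean of at least 5 CPM in some group, called genes first, leaving out predicted models and pseudogenes; the 2 of smallest p in each list; and 22 fixed genes. Mcm5 was named for its promoter, and Spats2 after its values were seen. Some genes that the rule names are not reported here. A fold against a group without counts is a lower bound against 3 counts per library; intervals of counting were not needed elsewhere. The code was tested on simulated data. The 28 alternatives were no block, a block per genotype, RLE size factors, DESeq2 1.42.0, limma-voom (limma 3.58.1), no filter, abundant RNA classes left out, Jak2V617F HSC replicates 1 and 4 left out, and each batch and each library left out.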

Additional observations from a re-analysis of the deposited data

Results flagged for a closer look

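Gbp4 was the gene for which the test of the difference itself found unequal Jak2V617F effects in MPP3 and HSC (edgeR adjusted p = 0.0369).

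In 26 of 404 groups of 4 libraries of the 101 named genes, 1 library stood apart from the other 3 by Dixon's criterion; chance flags about 1 in 20 groups, and the values that follow are log2 CPM of the library that stood apart. In Jak2V617F MPP3 the high ones were Pmf1 in replicate 4 (7.753), Ccr2 in replicate 1 (3.073), Ctse in replicate 3 (5.756) and Flt3 in replicate 3 (7.573). The low ones were Fgd5 in replicate 2 (1.508), Slc2a1 in replicate 2 (5.213), Il4 in replicate 4 (-2.947) and Rb1 in replicate 4 (0.9777). In WT MPP3 all were high: Prnp in replicate 4 (3.098), Pmf1 in replicate 3 (7.342), and Rhob (4.344), Clec9a (-3.172) and Ptgs2 (3.589) in replicate 1.

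In Jak2V617F HSC, replicate 3 was low for Nfe2l1 (5.781), Pdgfrb (3.413), Rrp12 (6.317) and Srxn1 (2.456) and high for Procr (5.992). Replicate 2 was low for Tie1 (7.259), Ebp (6.072) and Slamf1 (5.049), and Ccr2 was high in replicate 1 (-1.786). In WT HSC, Traf1 was high in replicate 4 (5.304), Clec9a in replicate 2 (2.593) and Ptgs2 in replicate 1 (3.819), and Mpo was low in replicate 3 (-4.237).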

How the results depend on the processing

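Calls of the difference of effects, 1 with the batch block, numbered 6 without the replicate block, 168 in DESeq2, 5 in limma-voom, 6 without batch 3 and 0 without batch 1, 2 or 4 or without Jak2V617F HSC replicates 1 and 4 together; leaving out single libraries gave 0 to 10. Calls among list members went from 1 to 5, 38, 4, 5 and 0 in the same order, and to 0 to 8 over single libraries. Genes at an unadjusted p under 0.01, 319 in all, were 593 in DESeq2, 196 without Jak2V617F HSC replicates 1 and 4, 146 without batch 2 and 183 without batch 4 (221 to 466 over single libraries). The 36 replication and mitosis genes among them were 10 without those replicates and 18, 15 and 17 without batches 1, 2 and 4 (21 to 52 over single libraries). Effects called in MPP3, 82, were 9 without the block, 753 in DESeq2, 30 with no filter, 22 without the Jak2V617F HSC pair, and 3, 4, 382 and 4 without batches 1 to 4 (2 to 253 over single libraries). Effects called in HSC, 1394, were 250 without that pair and 634, 337 and 361 without batches 1, 2 and 4 (703 to 1681 over single libraries). The simple effects have no value under the block per genotype. Fits with libraries left out have fewer degrees of freedom, and their counts went down in some cases and up in others. The cause of the changes was not tested.

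Of 101 named genes, 94 kept the sign of their difference in all 28 alternatives. Most of the 101 had been named for the smallest p of a direction or list in these same libraries. That choice itself favours a sign that holds when overlapping libraries are refitted, so the count is a description. The genes that turned, given next, had all been named as fixed genes and not by their p, and other fixed genes kept their sign. Ern1 turned to -0.22 without the Jak2V617F HSC pair and -0.21 without batch 1 (-0.098 to 0.52 over single libraries). Hspa5 turned to 0.019 without the replicate block, 0.010 with a replicate block per genotype, 0.016 in limma-voom, 0.14 without the pair, and 0.071 and 0.042 without batches 2 and 4 (-0.25 to 0.20). Atf4 turned to -0.044 without the pair and -0.034 without batch 1 (-0.075 to 0.19). Ddit3 turned to -0.0054 with RLE, -0.0058 in DESeq2, -0.040 with no filter and -0.21 without batch 2 (-0.22 to 0.085). Cish turned to -0.041 without the pair and -0.011 without batch 2 (-0.042 to 0.37), Slamf1 to -0.067 without batch 4 and Mpo to -0.55 without the pair. Gbp4 lost its call in 19 of the 28, with adjusted p from 6.09e-07 to 0.419. List medians kept their direction throughout for replication (-0.58 to -0.38), mitosis (-0.70 to -0.43), HSC identity (0.29 to 0.44), immediate early genes (0.35 to 0.78), megakaryocyte (-0.64 to -0.24) and erythroid genes (-2.12 to -0.54).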

Other observations

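Spats2 lay below the 5 CPM minimum used for naming and was named after its values were seen, since a group had no counts and its p was small. It had 0.776, 1.09, 0.128 and 1.25 CPM in Jak2V617F MPP3 against no counts in WT MPP3, at least 9.83-fold higher when counted against 3 counts per library, and 1.26, 0.337, 0.453 and 0.852 CPM in Jak2V617F HSC against 2.11, 2.18, 2.99 and 1.52 CPM in WT HSC, where every Jak2V617F library lay below every WT library (edgeR adjusted p = 0.185 for the difference, DESeq2 adjusted p = 1.31e-05).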
